A study of Mus musculus with 16 samples.

Results

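The genes described here encode the proteins of the cytosolic ribosome. They were chosen by gene name: protein-coding genes whose symbol begins with Rpl or Rps followed by a digit, together with Rplp0, Rplp1, Rplp2 and Rpsa, leaving out the Rps6k kinases and pseudogene names. The rule finds 87 of the 56941 genes in each of the 2 expression tables, 49 named for the large subunit, 34 for the small subunit and 3 for the P stalk, and 1 gene, Rps19bp1, that is not a ribosomal protein but binds one. Of the 87, 77 encode standard subunits, 7 are paralogs (Rpl3l, Rpl7l1, Rpl10l, Rpl22l1, Rpl36al, Rpl39l and Rps27l) and 2 are retrogenes (Rps23rg1 and Rps27rt). The rule reads names and no measured value, but the family was taken up with earlier results of these data known, so the differences below are given as a description of the family, beside the same measure over all protein-coding genes.

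The samples were 16 bulk RNA-seq libraries from indirect cocultures, in which 2 cell populations shared medium across a porous insert. PSC (n = 3) was mPSC1, an immortalized murine pancreatic stellate cell line, cultured alone, and PSC+SCG (n = 3) was the same line cultured with explants of superior cervical ganglia (SCG), the sympathetic ganglia of the neck. SCG (n = 3), SCG+MEF (n = 3) and SCG+PSC (n = 4) were SCG explants cultured alone, with NIH 3T3 cells (an embryonic fibroblast line used as the control fibroblast) and with mPSC1. Each well held several explants, from wild-type C57BL/6J pups in the first days after birth, and each coculture used a single cell line. The explants are mixed tissue, and their medium held nerve growth factor. The labels do not say which libraries shared a culture date, and nothing in them says that the libraries of a group came from separate cultures, so p-values measure the spread between these libraries, which may in part be technical.

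A ribosome is built from a small subunit that reads the messenger RNA and a large subunit that joins amino acids, and each protein of a subunit is present in about one copy, so their messengers are made in near-matched amounts. Growth signals act on them through mTORC1: most of these messengers start with a C followed by a run of pyrimidines, the 5′ terminal oligopyrimidine (5′TOP) tract, to which the protein Larp1 binds, and which couples their translation and stability to growth. Ribosomal protein genes have left many processed pseudogenes in mammalian genomes. The question the cocultures address is which transcripts of one cell type change when it shares medium with the other.

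The sequences at the annotated start of transcription are shown because the 5′TOP tract lies there. Starts were available for 67 of the 87 genes in the RefSeq promoter table (GRCm38.p6), and each printed window, 10 bases before the start and 20 from it on, was matched exactly to GRCm39, whose coordinates are given. Capitals mark a C at the start and the unbroken run of C and T after it, where that run has at least 4 bases. Lower case alone means that the annotated start has no such tract.

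Rps6: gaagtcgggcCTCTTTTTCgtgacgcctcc
Rpl38: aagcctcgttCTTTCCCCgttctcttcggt
Rplp2: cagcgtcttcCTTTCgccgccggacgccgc
Rps27: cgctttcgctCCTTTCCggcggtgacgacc
Rps27rt: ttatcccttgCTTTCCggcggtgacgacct
Rps28: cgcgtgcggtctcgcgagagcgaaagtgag
Rpl41: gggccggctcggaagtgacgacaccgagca
Rpl22l1: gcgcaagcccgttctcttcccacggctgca
Rpl39l: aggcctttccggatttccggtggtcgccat

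These windows are, in the same order, chr4:86775585-86775614 (minus strand), chr11:114559396-114559425 (plus), chr7:141027554-141027583 (plus), chr3:90120936-90120965 (minus), chr9:114811788-114811817 (minus), chr17:34043517-34043546 (minus), chr10:128385018-128385047 (minus), chr3:28859647-28859676 (plus) and chr16:9988082-9988111 (plus). Rps6, Rpl38, Rplp2, Rps27 and its retrogene Rps27rt have the tract at the annotated start, and Rps28, Rpl41, Rpl22l1 and Rpl39l do not. In Rpl22l1 a run of pyrimidines begins just inside the annotated start. Read on the gene's own strand, a C followed by at least 4 bases that are C or T stood at the annotated start of 14 of the 67 members (20.9%) and of 443 of 15646 protein-coding genes (2.83%). Within 10 bases on either side of the start the shares were 61.2% and 36.4%. A match is a description of the window, and a start annotated a few bases off hides a tract.

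The libraries whose depth could be read from the values, 14 of 16, held 31900689 to 41632381 reads on genes. Fibroblast markers (7 of 7 present) summed to 399645 to 684397 normalized counts per library in the PSC table, where 6 of 8 neuron markers stayed under 10 in every library. In the SCG table neuron markers summed to 135784 to 297388, glial markers to 41993 to 60227 and fibroblast markers to 213294 to 408216, so the explants held several cell types. In bulk tissue, fewer cells of a type and less RNA per cell cannot be told apart. The mitochondrially encoded share of counts, a common sign of RNA quality, ran from 0.786% to 2.38% in the PSC table and from 1.03% to 1.96% in the SCG table.

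Ribosomal protein genes were among the most abundant transcripts. Of the 87, 58 had a mean normalized count of at least 10000 and 77 of at least 1000 over the PSC libraries, and over the SCG libraries these numbers were 47 and 77. Rplp0, the core of the P stalk and a common reference gene for qPCR, had the highest count in both tables, a mean of 81764 over the PSC libraries and 40991 over the SCG libraries. Compared per kb of coding sequence, Rpl41, whose coding sequence of 75 bases is the shortest of the family, had the highest value in both, 257489 in PSC and 197120 in SCG libraries. Reads on untranslated exon parts also count, while the divisor is coding length alone, so short coding sequences give high values. The mean counts of Rpl41 itself were 19312 and 14784. Rplp1 followed with 91996 and 47186 per kb. Rplp0 (85977 per kb), Rpsa (75597 per kb), also known as a laminin receptor, and Rps12 (57021 per kb) came next in the PSC table. Rpl23 (45486 per kb), Rplp0 (43103 per kb) and Rps24 (43041 per kb) came next in the SCG table, 3 genes whose levels lay close together. The median over the 77 genes with a mean of at least 1000 was 32372 per kb in the PSC and 24883 per kb in the SCG table. The lowest of these in the SCG table was Rpl7l1, which acts in ribosome assembly, with 3824 per kb. The tables were normalized separately, so levels are set side by side and not tested.

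Some genes of the family are listed at counts far below the rest. Rpl24, a standard large subunit protein, had 2.0 to 10.1 normalized counts in PSC libraries and 2.6 to 7.6 in SCG libraries. Rps10, a standard small subunit protein, had 12.5 to 44.0 and 7.1 to 29.8. Rpl13a, a further reference gene for qPCR, had 596 to 1044 and 385 to 732. In GENCODE M39, 71.5% of the exon bases of Rpl24 lie in exons of the lncRNA Gm28037 on the same strand, 38.8% of those of Rps10 in the readthrough gene Gm49804, and 54.9% of those of Rpl13a in the readthrough gene Gm45713 or Mir5121. These 3 overlapping genes, Gm28037, Gm49804 and Gm45713, were themselves at 0 in all 16 libraries. The authors counted reads on an earlier GENCODE release, in which the overlaps were not measured here. The counter used by the authors drops a read that falls in more than one gene, and its part in these low counts was not tested. The counts of Rpl24, Rps10 and Rpl13a are therefore not read as levels. Rpl36al, for which 11% of exon bases overlap the readthrough gene Gm49383, had 11.4 to 21.3 counts in PSC and 4.1 to 17.3 in SCG libraries.

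Sequence copies are a second limit on these counts. Of all 50-base stretches of a member's coding sequence, a median of 89.6% had an exact copy elsewhere in GRCm39, and for 31 members all did. The share was 0% for 4 members, among them Rpl39l, Rpl3l and Rps19bp1, and it was 8.1% for Rps3. The tables hold 324 pseudogenes with ribosomal protein names. These took 0.039% to 0.092% of counts in PSC libraries and 0.042% to 0.060% in SCG libraries, the most abundant being Rpl19-ps11 with a mean of 1277 in PSC libraries and Rps4l, which the tables type as a pseudogene, with 884 in SCG libraries. Only reads that map to 1 place were counted, so for members with many copies the counts may leave out reads.

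Taken as 1 family, ribosomal protein transcripts made up between 3.16% and 4.48% of all normalized counts in the PSC table. PSC replicates 1 to 3 had shares of 3.77%, 3.62% and 4.42%, and PSC+SCG replicates 1 to 3 had 3.16%, 3.46% and 4.48%. The groups overlapped, and the library at the top and the library at the bottom were both PSC+SCG. The mean share was 3.94% ± 0.43 (SD, n = 3) in PSC and 3.70% ± 0.69 (SD, n = 3) in PSC+SCG. In the SCG table the shares were 2.80%, 2.93% and 3.24% in SCG, 2.46%, 2.94% and 3.07% in SCG+MEF, and 2.68%, 2.95%, 2.86% and 2.91% in SCG+PSC. Their means, 2.99% ± 0.23 (SD, n = 3), 2.82% ± 0.32 (SD, n = 3) and 2.85% ± 0.12 (SD, n = 4), differed by less than the SD of SCG. Counting error was far smaller than these gaps: the widest 95% Wilson interval of a library spanned 0.013 percentage points, and it covers counting error only.

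**Figure D1:**
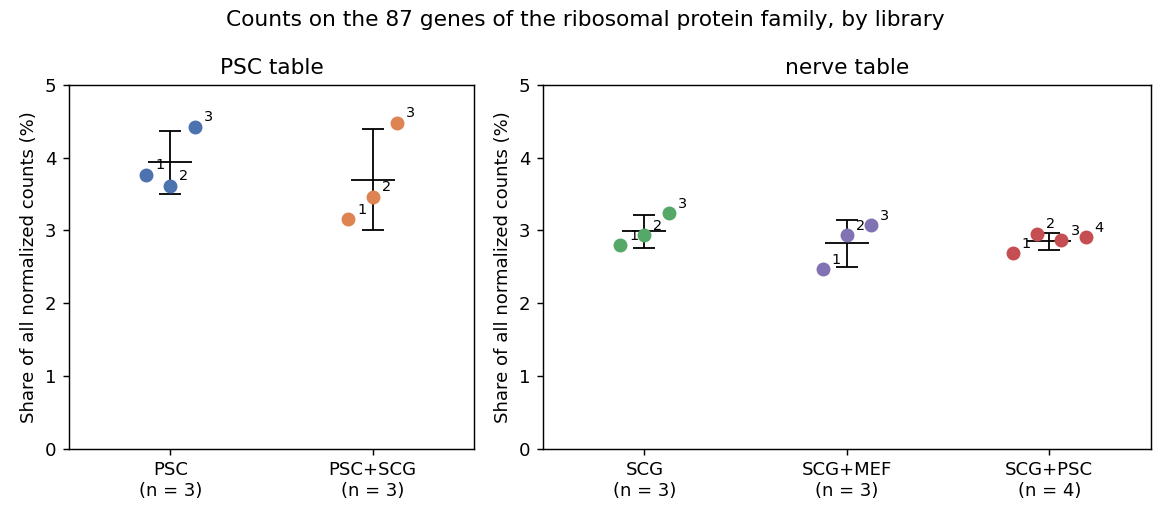
Share of all normalized counts (%, vertical axis) that fell on the 87 genes of the family in each library, by group (horizontal axis). Points are libraries with their replicate number and black bars are the group mean ± SD. Replicates 3 of PSC and PSC+SCG stand at 4.42% and 4.48%, above the other 4 libraries of that table, and the groups overlap in both tables.

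Genes of the family moved together from library to library. Over the 77 genes with a mean of at least 1000, the median deviation from a gene's own mean (log2 scale) was −0.06, −0.06 and 0.26 in PSC replicates 1 to 3 and −0.32, −0.16 and 0.35 in PSC+SCG replicates 1 to 3. PSC+SCG 3 was the highest library for 67 of the 77 genes and PSC 3 for the other 10, while PSC+SCG 1 was the lowest for 61 and PSC+SCG 2 for 16. Between its highest and its lowest library a gene differed 1.61-fold in the median, from 1.22-fold to 2.40-fold. Rps12 was the gene at 2.40-fold, with 13834 counts in PSC+SCG 1 and 33184 in PSC+SCG 3. The Pearson correlation of a gene with the median of the other members over the 6 libraries, given as a description since the genes share libraries and size factors, had a median of 0.97 and a lowest value of 0.71.

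In the SCG table the shared movement was smaller. The median deviations were −0.06, 0.01 and 0.21 in SCG replicates 1 to 3, −0.23, 0.02 and 0.14 in SCG+MEF replicates 1 to 3, and −0.12, 0.04, −0.01 and 0.02 in SCG+PSC replicates 1 to 4. SCG+MEF 1 was the lowest library for 70 of the 77 genes, and SCG 3 the highest for 44. The correlation with the other members over the 10 libraries had a median of 0.88. Large and small subunit genes had like medians in each library: in PSC+SCG 1 their medians were −0.31 and −0.32, and in PSC+SCG 3 they were 0.36 and 0.35.

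Other measures moved with the family across the PSC libraries. In the PSC table, 845 other protein-coding genes with a coding sequence of at most 600 bases and a mean of at least 1000 had median deviations of −0.06, −0.01 and 0.11 in PSC and −0.10, −0.04 and 0.11 in PSC+SCG, in the order of replicates 1 to 3. The 78 mitochondrial ribosomal protein genes, which are encoded in the nucleus, had medians of −0.08, −0.02 and 0.16 in PSC and −0.17, −0.08 and 0.22 in PSC+SCG. The mitochondrially encoded share ran the other way, 2.08%, 1.41% and 0.930% in PSC and 2.38%, 1.32% and 0.786% in PSC+SCG. Cycling markers (4 of 4 present) were highest in replicates 3, at 53324 and 52268 summed counts against 36298 to 42516 in the other 4 libraries. Fibroblast markers were lowest there, at 459779 and 399645 against 602725 to 684397. The SCG table showed only some of this. Mitochondrial ribosomal protein genes had medians of −0.05, −0.02 and 0.11 in SCG and −0.10, 0.01 and 0.06 in SCG+MEF. Cycling markers were highest in replicate 2 of each group, at 13132, 13660 and 18898, and SCG 3 had 5348. Fibroblast markers were lowest in SCG 1, at 213294. The mitochondrially encoded share was highest in SCG+MEF 3, at 1.96%, where the family's median was 0.14. The part of these measures in the family's movement was not tested.

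**Figure D2:**
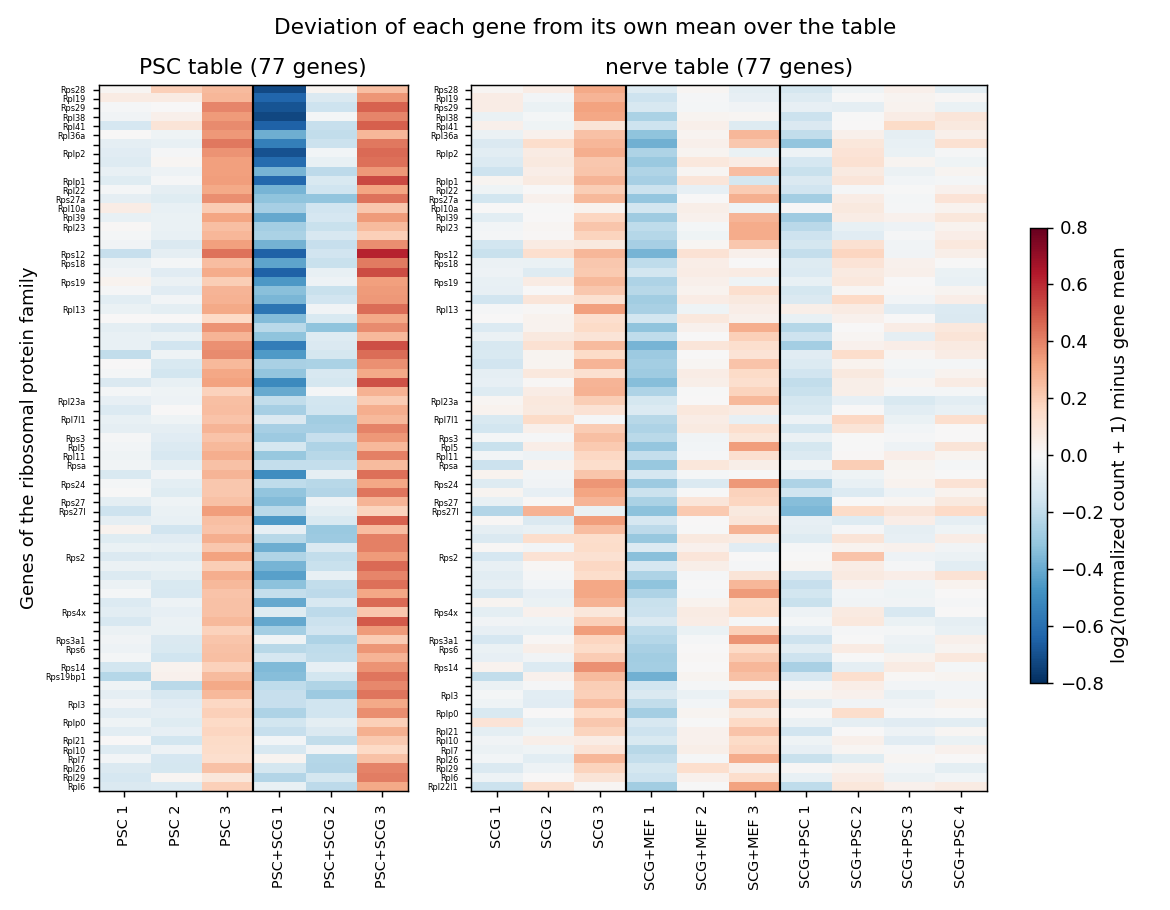
Deviation of log2(normalized count + 1) from each gene's own mean over the table (colour) for the 77 genes with a mean of at least 1000 in the PSC table (left, 6 libraries) and the SCG table (right, 10 libraries); rows are ordered by the log2 fold change of PSC+SCG against PSC labels name the genes picked out by the naming rule, and black lines part the groups. Whole columns share a colour: PSC+SCG 1 is low (median −0.32) and PSC+SCG 3 high (median 0.35).

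Against this spread, culture with SCG explants left ribosomal protein transcripts of PSCs without a detectable difference. In the comparison of PSC+SCG with PSC, the log2 fold change of the 83 members with enough counts to test had a median of −0.09, a fold of 0.941, against 0.01 over the 14541 protein-coding genes tested. It was below 0 for 77 members (92.8%), against 46.8% of all protein-coding genes. A gene was called where its limma adjusted p was 0.05 or lower and its log2 fold change 0.5 or more in size. None of the 83 members was called (background 0%, 0 of 14541 genes), and none had an unadjusted p under 0.05 (background 1.41%). The lowest adjusted p of a member was 1.0. When same-numbered libraries were paired through a block term, the background was 0.523% (76 genes), no member passed, and 4 members had an unadjusted p under 0.05, 4.82% against a background of 6.09%.

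The direction of this median differed with the libraries and pairs used. Leaving out 1 library at a time moved the median from −0.29 without PSC+SCG 3 to 0.04 without PSC+SCG 1. It was also above 0 without PSC 3. The same-numbered partner stayed in, so these shifts also carry the difference between replicates. Within same-numbered pairs the median difference over the 80 members with a mean of at least 100 was −0.27 for replicates 1, −0.09 for replicates 2 and 0.09 for replicates 3, with 77, 71 and 11 of the 80 genes below 0. Over all protein-coding genes the same medians were 0.02, 0.00 and 0.02. In all, 11 of 83 members (13.3%) were lower in PSC+SCG in all 3 pairs against 9.94% of all protein-coding genes, and none was higher in all 3 against 13.6%. No member had PSC+SCG libraries all above the PSC libraries (background 2.9%). The confidence intervals limit what could have been missed. In the fit without the block, the 95% interval of each of the 80 members lay within a log2 change of −1 to 1. Only 28 of them lay within −0.5 to 0.5. The median SE of these members was 0.197 in that fit and 0.108 with the block, so the intervals carry the spread between replicate numbers.

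**Figure D3:**
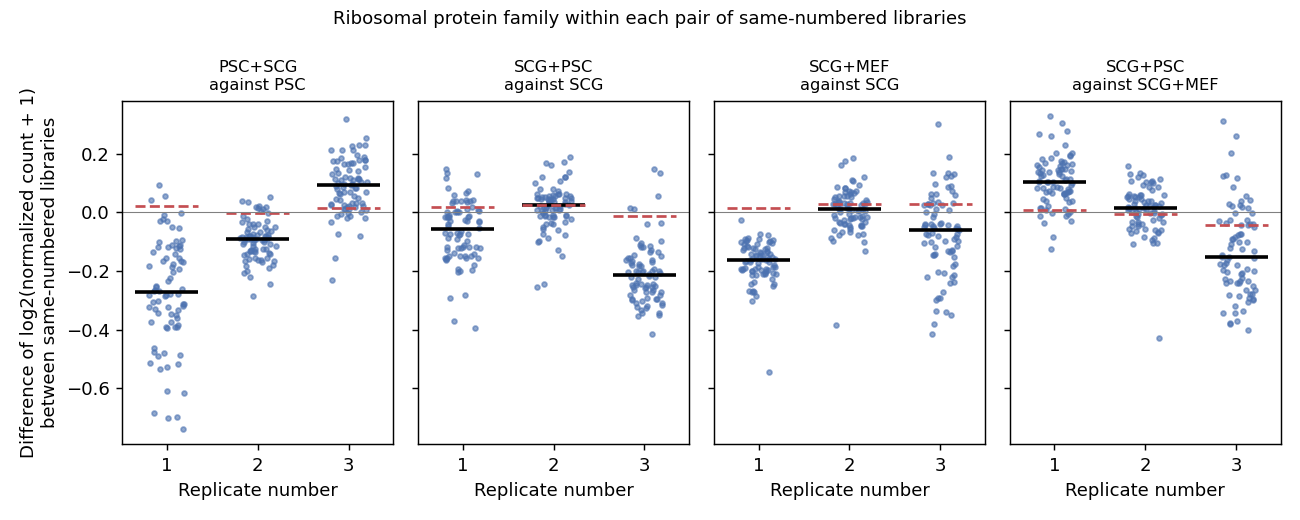
Difference of log2(normalized count + 1) between same-numbered libraries (vertical axis) for the 80 members with a mean of at least 100, Rps19bp1 included (points), by replicate number and comparison; black bars are the medians of these members and dashed red bars the medians over all protein-coding genes. In PSC+SCG against PSC the black bars stand at −0.27, −0.09 and 0.09, so the pairs differ in direction.

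Members with a mean of at least 100 were ranked. Of the 5 furthest down in PSC+SCG, Rps28, Rps29, Rpl38 and Rpl41 have coding sequences of 75 to 210 bases, and Rpl19 has 582. Rps28, a small subunit protein, had 9929, 11211 and 11722 counts in PSC and 5953, 9992 and 11608 in PSC+SCG, a log2 fold change of −0.31 ± 0.23 (SE, limma adjusted p = 1.0). Its low mean came mostly from PSC+SCG 1, and the other 2 PSC+SCG libraries lay within the PSC range. Within same-numbered pairs Rps28 was lower each time, by −0.74, −0.17 and −0.01 (limma adjusted p = 0.372 with the replicate block). Rpl19 (−0.27), Rps29 (−0.26), Rpl38 (−0.24), known for its part in translating Hox messengers, and Rpl41 (−0.23) also had their lowest values in PSC+SCG 1. For Rpl19, Rps29 and Rpl41, PSC+SCG 2 also lay below every PSC library, at 9938, 4869 and 16471 counts. Rps29 had 5428, 5464 and 7137 counts in PSC and 3377, 4869 and 7547 in PSC+SCG, and its SE was 0.27. The 5 ranked members furthest up were all near 0: Rpl22l1 (0.03), Rpl6 (0.02), Rpl29 (0.02), Rpl26 (0.02) and Rpl7 (0.02). The 1 member whose groups did not overlap was the retrogene Rps27rt, at 387, 384 and 447 counts in PSC and 297, 373 and 381 in PSC+SCG (log2 fold change −0.22 ± 0.17 SE, limma adjusted p = 1.0), and 1.2% of members stand beside 1.47% of all protein-coding genes that did not overlap in this direction. When the pairs were kept as a block and replicates 3 were left out, a setting chosen after seeing the data, Rpl19 (log2 fold change −0.44), Rps28 (−0.45) and Rps29 (−0.43) had limma adjusted p values of 0.024, 0.020 and 0.037, beside 1.53% of all protein-coding genes with an adjusted p no higher than 0.05, and without replicates 1 the median over the members was 0.00.

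Coding length ran with the size of the difference. The 20 members with a coding sequence of up to 360 bases had a median log2 fold change of −0.14 in PSC+SCG against PSC, and the 23 with over 600 bases had −0.06. Among other protein-coding genes with a mean of at least 1000, the 259 with up to 360 coding bases had a median of −0.04 and the 6078 with over 600 had 0.01. Over the 80 members the Spearman correlation of coding length with log2 fold change was 0.53 in this comparison. In the SCG table it was 0.35 for SCG+PSC and 0.25 for SCG+MEF, each against SCG, and 0.08 between the cocultures. These are given as a description over genes that share libraries. Members with and without the 5′TOP tract at the annotated start had medians of −0.11 (13 genes) and −0.08 (47 genes) in PSC+SCG against PSC. The part of transcript length in these values was not tested.

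**Figure D4:**
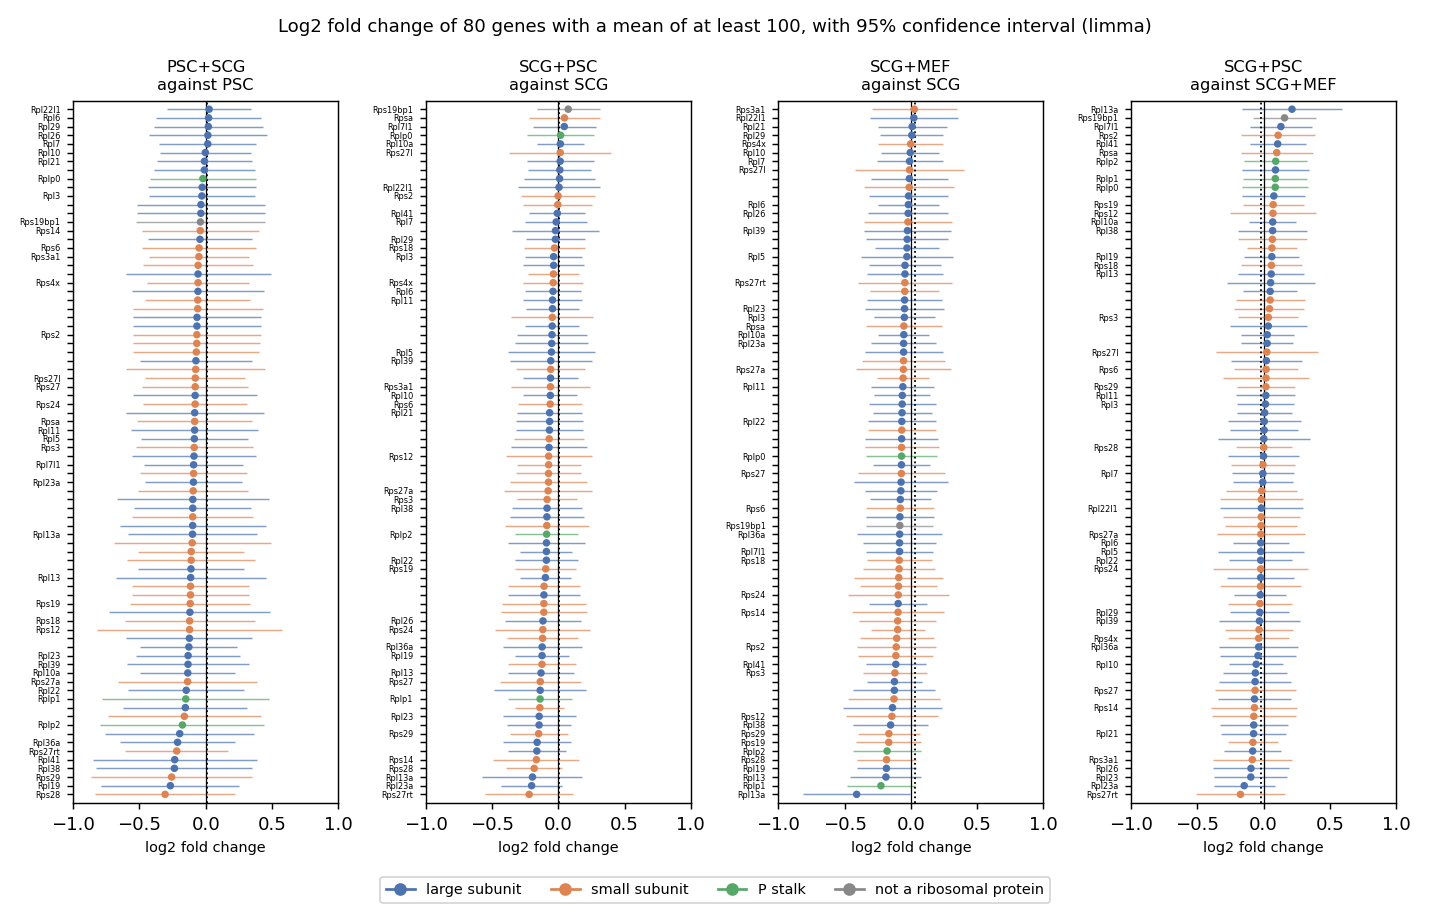
Log2 fold change with its 95% confidence interval (limma, horizontal axis) for the 80 members with a mean of at least 100, Rps19bp1 included, in each of the 4 comparisons, ordered by size within a panel, with labels for genes picked out by the naming rule; colour marks the subunit, the solid line is 0 and the dotted line the median over all protein-coding genes. The points lie between −0.31 and 0.03 in PSC+SCG against PSC, and the only interval that does not reach 0 is that of Rpl13a in SCG+MEF against SCG.

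In SCG explants the 3 comparisons share libraries, so their values are given side by side and no overlap between them is read. In SCG+PSC against SCG the median log2 fold change over 85 members tested was −0.07, with 73 (85.9%) below 0 against 47.8% of 15984 protein-coding genes. In SCG+MEF against SCG it was −0.07, with 80 (94.1%) below 0 against 40.7%. In SCG+PSC against SCG+MEF, the comparison of the 2 coculture partners, it was 0.00, with 42 (49.4%) below 0 against 55.2%. The medians over all protein-coding genes were 0.01, 0.03 and −0.02. As folds, the first 2 medians are 0.951 and 0.952.

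No member passed the threshold in these 3 comparisons in limma, beside 0.0501%, 0.0188% and 0% of protein-coding genes (8, 3 and 0). At an unadjusted p under 0.05 there were 0, 2 and 1 members (0%, 2.35% and 1.18%) against 5.57%, 2.72% and 3.93%. edgeR and DESeq2 on the recovered reads also called 0 members in each. When the block term was fitted the backgrounds were 1.93%, 0.238% and 1.14% (308, 38 and 182 genes), and again no member passed. At an unadjusted p under 0.05 with the block there were 7, 5 and 1 members (8.24%, 5.88% and 1.18%) against 13.2%, 8.09% and 14.7% of protein-coding genes. Intervals were narrower than in PSCs: 78 of 80 members had a 95% interval within −0.5 to 0.5 in each of the 3 comparisons. Leaving out 1 library at a time, with any same-numbered partners kept, moved the medians from −0.14 to 0.01, from −0.15 to 0.03 and from −0.11 to 0.08. The median of SCG+PSC against SCG was above 0 without SCG 3, and that of SCG+MEF against SCG without SCG+MEF 1 or SCG 3. Within same-numbered pairs, 23 members (27.1%) were lower in SCG+PSC than in SCG in all 3 pairs against 14.9% of protein-coding genes, and 1 (1.18%) was higher against 20.1%. For SCG+MEF against SCG, 19 (22.4%) were lower in all 3 against 10.2%, and 1 (1.18%) was higher against 17.3%. For SCG+PSC against SCG+MEF, 7 (8.24%) were lower against 20.6% and 7 (8.24%) higher against 16.7%. In no member did the groups part upward in SCG+PSC against SCG (background 3.13%) or in SCG+PSC against SCG+MEF (2.2%).

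Rpl23a, a large subunit protein, and Rps26, a small subunit protein, had no overlap between SCG and SCG+PSC. Rpl23a had 15771, 16529 and 17900 counts in SCG and 14158, 14908, 14373 and 14715 in SCG+PSC, and 14193, 15665 and 18710 in SCG+MEF (SCG+PSC against SCG, log2 fold change −0.20 ± 0.10 SE, limma adjusted p = 1.0). All 4 SCG+PSC libraries lay below the lowest SCG library, and the SCG+MEF libraries lay on both sides. These are 2.35% of members, beside 1.98% of all protein-coding genes without overlap in this direction. Rps27rt (−0.22) was the furthest down of the members with a mean of at least 100, followed by Rpl23a, Rpl13a (−0.19), Rps28 (−0.18) and Rps14 (−0.17). The furthest up were Rps19bp1 (0.07), a regulator of Sirt1 that is no ribosomal protein, Rpsa (0.05), Rpl7l1 (0.05), Rplp0 (0.02) and Rpl10a (0.02).

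In SCG+MEF against SCG, Rpl13a stood furthest down among the members with a mean of at least 100. It had 562, 732 and 533 counts in SCG and 385, 560 and 433 in SCG+MEF, a log2 fold change of −0.41 ± 0.18 (SE, limma adjusted p = 1.0), and SCG+PSC libraries had 435, 613, 537 and 537. The SCG and SCG+MEF groups overlapped. Within same-numbered pairs Rpl13a was lower in SCG+MEF each time (−0.54, −0.39 and −0.30), with a limma adjusted p of 0.261 with the replicate block. This is the gene with the readthrough overlap described above. Rplp1 (−0.23), Rpl13 (−0.19), Rpl19 (−0.18) and Rps28 (−0.18) came next. Rps28 was at 5144, 5312 and 6292 counts in SCG and 4729, 5138 and 4829 in SCG+MEF, without overlap, as were 1.18% of members and 2.05% of all protein-coding genes. The furthest up were Rps3a1 (0.03), Rpl22l1 (0.02), Rpl21 (0.01), Rpl29 (0.01) and Rps4x (0.00). In SCG+PSC against SCG+MEF, members with a mean of at least 100 were ranked in the same way. Furthest down were Rps27rt (−0.17), Rpl23a (−0.15), Rpl23 (−0.10), Rpl26 (−0.09) and Rps3a1 (−0.08). Furthest up were Rpl13a (0.21), Rps19bp1 (0.16), Rpl7l1 (0.13), Rps2 (0.11) and Rpl41 (0.11).

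By subunit the medians lay close together. Among members with a mean of at least 100, the 44 large subunit genes had a median of −0.09 and the 32 small subunit genes −0.09 in PSC+SCG against PSC. In SCG explants the same medians were −0.06 and −0.08 with PSCs and −0.06 and −0.09 with MEFs, each against SCG. The stalk genes Rplp0, Rplp1 and Rplp2, which recruit elongation factors, had log2 fold changes of −0.02, −0.15 and −0.18 in PSC+SCG, of 0.02, −0.14 and −0.09 in SCG+PSC and of −0.07, −0.23 and −0.18 in SCG+MEF. Rplp0 was closer to 0 than the acidic partners Rplp1 and Rplp2 in each comparison, and none of the 3 passed the test.

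No member with a known role outside the ribosome passed the test. Rpl5 and Rpl11, which bind and inhibit Mdm2 when ribosome assembly is disturbed, had log2 fold changes of −0.09 ± 0.18 and −0.08 ± 0.21 (SE) in PSC+SCG against PSC. Rps6, the substrate of the S6 kinases, had 19490, 18394 and 23614 counts in PSC and 17176, 17387 and 25555 in PSC+SCG, a log2 fold change of −0.05 ± 0.19 (SE). Its groups overlapped. Rps19, the gene most often mutated in Diamond-Blackfan anaemia, had −0.12 ± 0.20 (SE), and Rps27a, made as a fusion with ubiquitin, −0.14 ± 0.23 (SE). In SCG+PSC against SCG the values for Rpl5, Rpl11, Rps6, Rps19 and Rps27a lay between −0.09 and −0.04, and in SCG+MEF against SCG between −0.17 and −0.03. The reference genes Rplp0, Rps18 and Rpl13a had −0.02, −0.12 and −0.10 in PSC+SCG against PSC. Rps3 (−0.09), which also takes part in DNA repair, Rpl10 (0.00), which joins the large subunit late, and Rpl22 (−0.15), which has a paralog, gave values of the same range.

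The share of a paralog beside its partner differed between the 2 tables. Rpl22l1, the paralog that can take the place of Rpl22, had counts of 9.93% to 15.9% of those of Rpl22 in the 6 PSC libraries and 31.8% to 39.4% in the 10 SCG libraries. Its own counts were 828 to 1037 and 1814 to 2740. The ratio is taken within a library and does not depend on the size factor, and the ranges did not overlap. Within the PSC table it was 11% ± 0.91 (SD, n = 3) in PSC and 12.6% ± 2.9 (SD, n = 3) in PSC+SCG. Within the SCG table the group means were 34.7%, 36.8% and 36.9%. Rps27l, a target of p53, ran the other way: its counts were 61.1% to 71.5% of those of Rps27 in PSC libraries and 21.2% to 31.9% in SCG libraries. PSC and PSC+SCG had means of 65.2% and 65.3%, and SCG, SCG+MEF and SCG+PSC had 25.5%, 26.3% and 27.9%. Rpl7l1 had 14.2% to 16.8% of the counts of Rpl7 in PSC libraries and 10.1% to 13.6% in SCG libraries. Rps27 and Rps27rt have an exact copy of every 50-base stretch of their coding sequence elsewhere, so their split is uncertain, and Rps27rt ran at 4.72% to 6.49% of the counts of Rps27 over all libraries. The copied share was 48.3% for Rps27l, 82.6% for Rpl22l1, 31.0% for Rpl22, 21.9% for Rpl7l1 and 77.5% for Rpl7. The percentages are therefore ratios of counted reads and may differ from ratios of transcripts. Cell type and table are the same split here, so the 2 cannot be told apart.

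**Figure D5:**
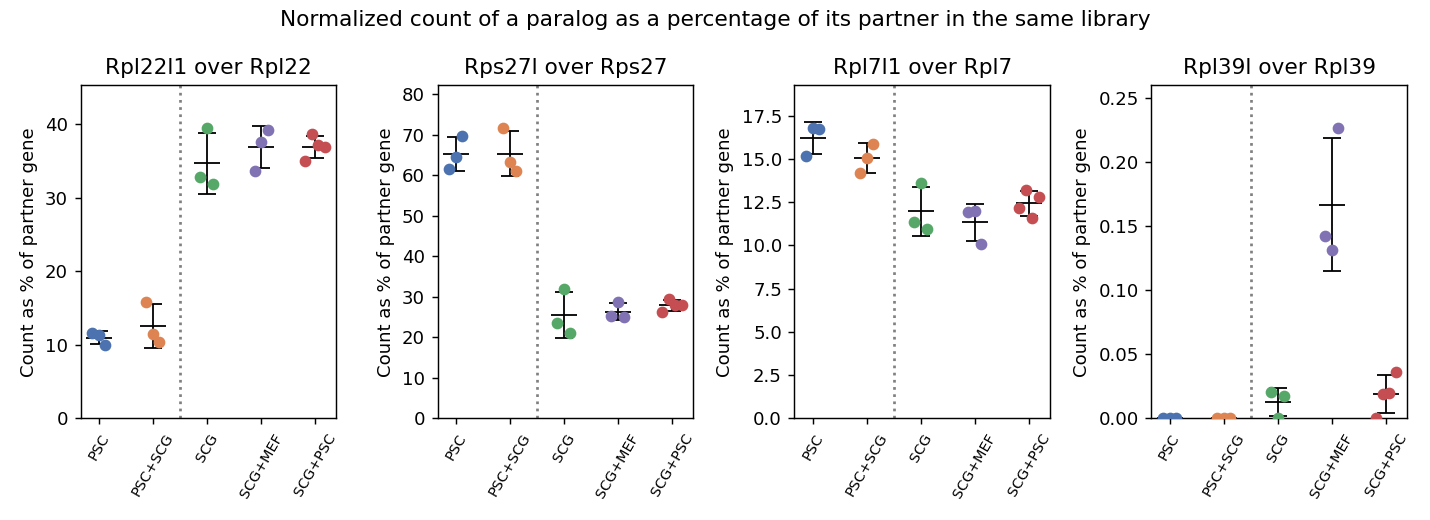
Normalized count of a paralog as a percentage of its partner gene in the same library (vertical axis, from 0) for Rpl22l1, Rps27l, Rpl7l1 and Rpl39l, by group; points are libraries, black bars the mean ± SD, and the dotted line parts the PSC from the SCG table. Rpl22l1 lies at 9.93% to 15.9% of Rpl22 in PSC libraries and at 31.8% to 39.4% in SCG libraries, and Rpl39l stands above the other groups in SCG+MEF.

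Rpl39l, a paralog known from testis, had the largest log2 fold change of a member in the SCG table, at very low counts. It had 1, 0 and 1 reads in SCG, 0, 1 and 1 in SCG+PSC replicates 1 to 3, and 6, 8 and 14 reads in SCG+MEF. All 3 SCG+MEF libraries lay above all others, whose highest normalized count was 2.0 in SCG+PSC 4. It was the 1 member without overlap upward in SCG+MEF against SCG (background 2.95%) and downward in SCG+PSC against SCG+MEF (2.41%). The log2 fold change of SCG+MEF against SCG was 2.57 ± 0.59 (SE) with limma, adjusted p = 0.701, and that of SCG+PSC against SCG+MEF was −2.34 ± 0.55 (SE), adjusted p = 1.0. The counts are too few for a fold to be read, and SCG stood at or under 3 reads per library. Rpl39l was at 0 in all 6 PSC libraries, and a count of 0 allows up to 3 reads a library. Rpl39 itself, its partner, had 4259 to 6263 counts in the SCG table. Rpl3l, known from striated muscle, had 0.0 to 8.1 counts in SCG and 0.0 to 2.5 in PSC libraries. Rpl10l, known from testis, was at 0 in all 16, and Rps23rg1 did not exceed 1.9. Other members with few counts also had log2 fold changes past 0.5 in size with wide intervals. Rpl36al had −0.61 ± 0.44 (SE) in SCG+MEF against SCG and 0.85 ± 0.41 (SE) in SCG+PSC against SCG+MEF. Rpl3l (−0.61 ± 0.84) and Rps10 (−0.57 ± 0.45) had theirs in SCG+PSC against SCG, and Rps10 had −0.50 ± 0.45 (SE) in SCG+PSC against SCG+MEF. None of these passed the test, and their limma adjusted p was 1.0.

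Some ribosomal proteins have genes with other names. Rack1, a scaffold on the small subunit, and Fau, made as a ubiquitin-like fusion, had log2 fold changes of −0.06 ± 0.20 and −0.05 ± 0.23 (SE) in PSC+SCG against PSC, −0.11 and −0.09 in SCG+PSC against SCG, and −0.14 and −0.09 in SCG+MEF against SCG. Neither passed the test in limma.

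Genes whose products build ribosomes were looked at beside them. A list of 50 ribosome biogenesis genes (nucleolar and assembly factors) had a median log2 fold change of 0.12 in SCG+PSC against SCG, with 45 above 0, and 0.14 in SCG+PSC against SCG+MEF, with 48 above 0. In SCG+MEF against SCG the median was −0.04, with 14 above 0, and in PSC+SCG against PSC −0.11, with 5 above 0. In these comparisons 52.2%, 44.8%, 59.2% and 53.2% of all protein-coding genes lay above 0. No gene of the list passed the threshold, with or without the replicate block, so no gene is called. In the same-numbered pairs, 34 of the 50 were higher in all 3 in SCG+PSC against SCG+MEF, beside 2663 of 15984 protein-coding genes (16.7%). In SCG+PSC against SCG, 21 of the 50 were higher in all 3, beside 3213 of 15984 (20.1%). In SCG+MEF against SCG 3 of the 50 were higher and 5 lower in all 3 pairs, beside 17.3% and 10.2% of protein-coding genes. In PSC+SCG against PSC these were 0 and 7 of the 50, beside 13.6% and 9.94%. The furthest up in SCG+PSC against SCG was Dkc1, the pseudouridine synthase of ribosomal RNA, named after its values were seen: 0.37 ± 0.18 (SE, limma adjusted p = 0.993, 0.052 with the replicate block). Cycling markers summed to 10424 to 18898 counts in SCG+PSC, 2695 to 13132 in SCG and 3750 to 13660 in SCG+MEF, and their part in these medians was not tested.

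Of the 35 initiation factor genes, 10 elongation factor genes, 21 other 5′TOP messengers, 35 regulators and 78 mitochondrial ribosomal protein genes listed, none passed the threshold in any of the 4 comparisons in limma, with or without the replicate block. Their medians lay between −0.07 and 0.05. For Myc, which drives transcription of ribosomal genes, the log2 fold change was −0.17 ± 0.24 (SE) in PSC+SCG against PSC, −0.02 ± 0.16 in SCG+PSC against SCG and −0.11 ± 0.17 in SCG+MEF against SCG. Larp1, which binds the 5′TOP tract, had −0.08 ± 0.21, 0.02 ± 0.11 and 0.01 ± 0.11 (SE) in the same comparisons. Eif4ebp1, the inhibitor of cap-dependent initiation that mTORC1 phosphorylates, had −0.04 ± 0.18, 0.01 ± 0.26 and −0.12 ± 0.28 (SE). Mycn was at 0.0 to 3.0 counts in PSC libraries and had 0.20 ± 0.25 and 0.15 ± 0.26 (SE) in the comparisons with SCG.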

How the data were processed

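RNA-seq libraries from PSCs (n = 6) and SCG explants (n = 10) were compared. The authors aligned poly-A selected, stranded reads to GRCm39 with STAR 2.7.10b, counted reads per gene, and deposited counts divided by DESeq2 1.38.3 size factors (signal values, per the labels and methods), with PSC and SCG tables normalized separately. Columns were matched to samples by name. Whole reads were recovered for 14 of 16 libraries (tolerance 0.01, 100% of values whole).

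Members and gene lists were chosen with earlier results of these data known. limma 3.58.1 (R 4.3.3, trend) was fitted on log2(normalized count + 1) for all genes summing to at least 10 over a table, which understates changes of low genes. p-values were adjusted by Benjamini-Hochberg over all genes tested, and a call needed an adjusted p no higher than 0.05 with a log2 fold change no smaller than 0.5. The authors' model held an experimental batch that the labels tie to no library, so it was not used. Same-numbered libraries deviated together (correlations 0.303 to 0.548 in PSC pairs and 0.168 to 0.509 in SCG pairs), so the replicate number was taken as a pairing and fitted as a block in an alternative. Other alternatives were pseudocounts of 0.5 and 8, other filters and scalings, each library left out, and edgeR 4.0.16 and DESeq2 1.42.0 on recovered reads. Named genes were the 5 members furthest up and down in each comparison with a mean of at least 100, the 5 highest and lowest per kb, paralogs, members with listed roles and Fau and Rack1, with Myc, Mycn, Larp1 and Eif4ebp1. Some genes are not reported here. Scripts were tested on simulated data.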

Additional observations from a re-analysis of the deposited data

Results flagged for a closer look

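In SCG+PSC, the group with 4 libraries, 6 of 85 values tested (84 members and the family's share of counts) had 1 library far from the other 3, by the gap to the nearest library as a share of the group's range. Chance gives about 1 in 20. SCG+PSC 1 was the lowest library for Rps21 (0.884 of the range), Rps27l (0.859), Rpl37 (0.896) and Rpl39 (0.841). SCG+PSC 2 was the highest library for Rplp0 (0.949) and Rps2 (0.847).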

How the results depend on the processing

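With the replicate number as a block, 0 members passed the threshold in each of the 4 comparisons, and the medians over members were −0.09, −0.09, −0.07 and −0.01 on the log2 scale, first for PSC+SCG against PSC, then for SCG+PSC and for SCG+MEF, each against SCG, and last between the explant cocultures. The block changed no call. With the block the lowest limma adjusted p of a member was 0.372, 0.363, 0.206 and 0.0885 in the same order, so no member passed on p alone. No alternative run gave a member past the threshold, which also asks for a log2 fold change of at least 0.5. With the block and without replicates 3, Rpl19, Rps28 and Rps29 met the adjusted p in PSC+SCG against PSC but not the fold, beside 1.53% of all protein-coding genes. That setting was chosen after seeing the data, and it leaves out the pair in which the family's median difference was above 0 (0.09). Leaving out 1 library at a time moved the same medians from −0.29 to 0.04, from −0.14 to 0.01, from −0.15 to 0.03 and from −0.11 to 0.08. Any same-numbered partners stayed in, so these shifts also carry the difference between replicates. None of the 190 named-gene log2 fold changes, each uncalled, was called under an alternative. Of their 3269 values under the alternatives, 301 had the other sign, 260 of them with a library left out, and they touch 130 of the 190. In PSC+SCG against PSC the sign changed for 39 of 46 named genes under at least 1 alternative. Only 6 values, all of Rpl39l, moved by more than the spread between libraries. With 3 or 4 libraries in a group, changes under 0.5 on the log2 scale could be missed for most members in PSCs. This holds for the fit without the block.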
